A study of Rattus norvegicus with 6 samples.

Results

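The transcripts of 10 genes of extracellular nucleotide signalling were followed in the lumbar spinal cord of rats with bone cancer pain (BCP). They encode the ion channel subunits P2rx2, P2rx3, P2rx4, P2rx5, P2rx6 and P2rx7, the G protein-coupled receptors P2ry1, P2ry6 and P2ry14, and the ectonucleotidase Entpd1. The genes were taken by their symbols from the deposited gene table, where each of the 10 had a single row among 30957 listed genes. Counts were found for 9 of them, and all of these 9 passed the filter on low counts and were tested. Entpd1 was listed at 0 in every library.

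BCP had been induced in adult female Wistar rats with living Walker 256 cells (a breast carcinoma line of the rat) placed in the marrow of the left tibia. The sham operation used heat-killed Walker 256 cells at the same site, so both groups shared the surgery and the contact with tumor cell material. The injected side of the lumbar enlargement was taken on day 14, with the meninges removed, and total RNA depleted of ribosomal RNA was sequenced in 3 BCP and 3 sham libraries. The labels number the replicates without tying each to 1 rat, so the p-values measure the spread between these libraries.

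Extracellular ATP, ADP, UTP, UDP and UDP-sugars act on P2 receptors. The P2X receptors are trimeric cation channels opened by ATP, and the P2Y receptors are coupled to G proteins and differ in the nucleotide they bind. Ectonucleotidases such as Entpd1 (CD39) remove the agonist from the cell surface. In the pain pathway, P2X3 and its partner P2X2 are known from nociceptive primary afferents, whereas P2X4, P2X7, P2Y6 and P2Y12 are known from spinal microglia.

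The counts on genes totaled 13366905 to 15004290 in sham tissue and 11779485 to 13764758 in BCP tissue. Marker genes of the spinal cord were abundant in every library, with a summed level of 8 neuron markers between 3385 and 3834 CPM (counts scaled to a common library size after TMM normalization). Of these 8, Rbfox3 (log2FC -0.34), Tubb3 (-0.25) and Stmn2 (-0.19) were lower in the BCP libraries at an edgeR adjusted p under 0.05, and none was higher. The summed level of 15 microglia markers lay between 422 and 525 CPM in sham tissue and between 1165 and 1422 CPM in BCP tissue, and 8 of the 15 were up-regulated more than 2-fold. The summed level of 7 T cell markers lay between 6.08 and 6.64 CPM in sham tissue, where Cd3d was at 0, and between 49.0 and 56.1 CPM in BCP tissue. All 7 of these T cell markers were up-regulated more than 2-fold. Cd4 made up most of their sum in sham tissue (5.09 ± 0.624 CPM, SD, n = 3) and was at 21.9 ± 3.21 CPM in BCP tissue. Of 4 red blood cell markers, 3 were up-regulated more than 2-fold, and the 4 summed to between 244 and 258 CPM in sham tissue and to between 465 and 675 CPM in BCP tissue. All 7 oligodendrocyte markers were lower in BCP tissue (median log2FC -0.41). Among 7 astrocyte markers 1 was higher and 2 were lower. Of 6 markers of monocytes and macrophages 4 were tested, namely Cd163, Mrc1, F13a1 and Lyve1. Ccr2, with 0 counts in every sham library and 1 in every BCP library, was not tested. None of the 4 passed an adjusted or unadjusted p under 0.05 in edgeR or an adjusted p under 0.05 in DESeq2. The only tested marker of neutrophils, S100a8, had 0 to 1 counts in a sham library and 10 to 23 in a BCP library (log2FC 5.24, edgeR adjusted p = 6.2e-05). The part of these shifts in the results on the purinergic genes was not tested, and in whole tissue a change in the number of cells of a type and a change in RNA per cell cannot be told apart.

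Among the 10 genes, 4 receptor genes were higher in BCP rats. P2ry6, P2ry14, P2rx4 and P2rx7 passed an adjusted p-value under 0.05 and a fold change over 2 in edgeR's quasi-likelihood test, so 4 of the 10 genes were up-regulated at these thresholds, which 6.35% of the 14908 tested genes passed in that direction. None of the 10 was down-regulated more than 2-fold (0.107% of tested genes were). With no threshold on the fold change the same 4 genes were higher (15.8% of tested genes were), and P2ry1 and P2rx6 were lower (12.1% of tested genes were). The normalised counts of the groups did not overlap for 5 of the 10 genes, against 41.4% of all tested genes. In edgeR the tested genes with an unadjusted p-value under 0.05 were the same 4, P2ry1 and P2rx6. The share of all genes at that unadjusted threshold was not computed. At an adjusted p under 0.05 DESeq2 called the same number of genes higher, 4, but none lower. Over all genes it called 2116 higher and 1363 lower, but these were not computed as shares of the genes DESeq2 tested.

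**Figure D1:**
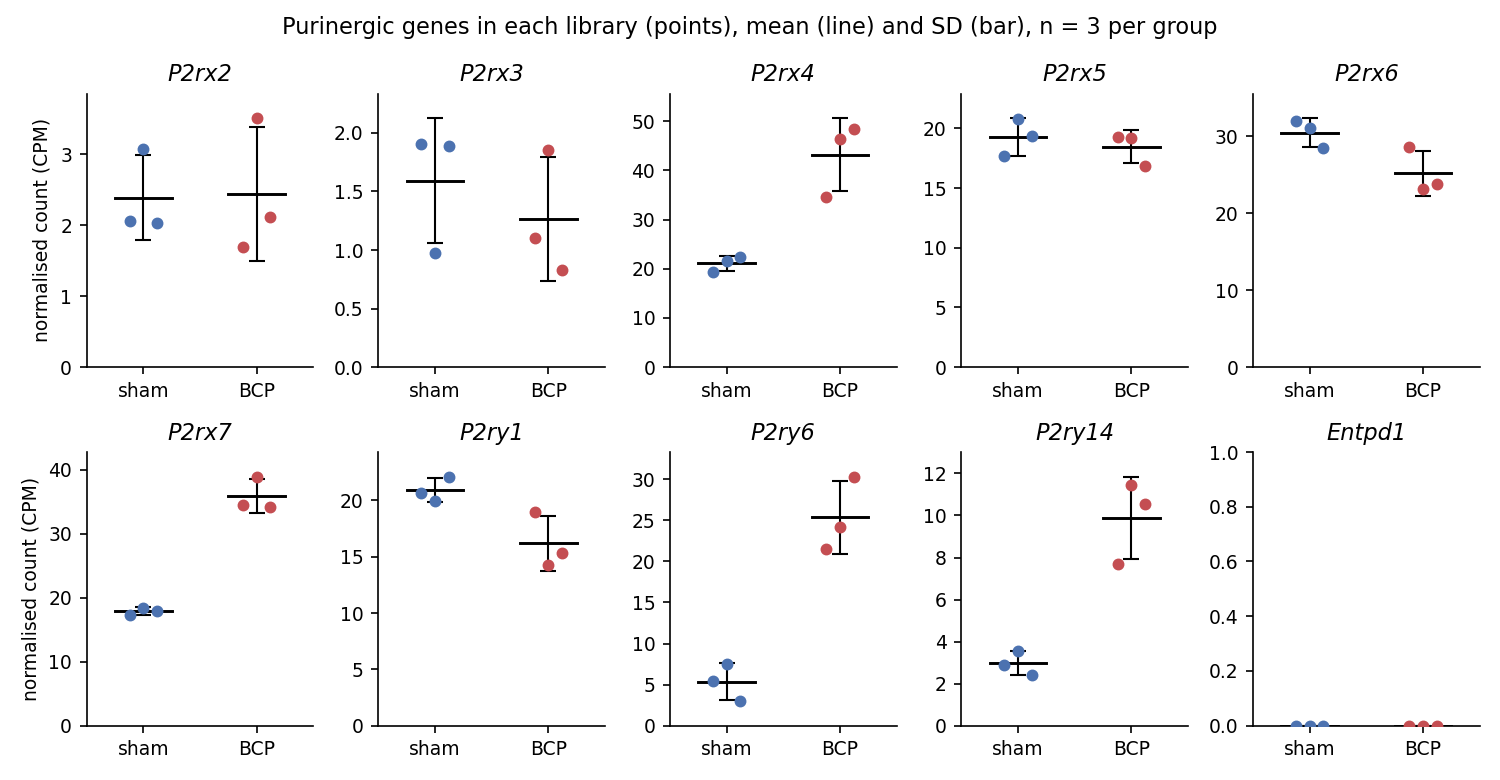
Normalised counts (CPM, axes from 0) of the 10 genes in each of 3 sham and 3 BCP libraries, with the mean (line) and SD (bar) of each group. The BCP libraries of P2rx4, P2rx7, P2ry6 and P2ry14 all lay above the sham libraries, those of P2ry1 lay below them, and Entpd1 was at 0 throughout.

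P2rx4 encodes the ATP-gated channel that spinal microglia express after nerve injury, and it is known for the release of brain-derived neurotrophic factor. Its normalised count was 19.4, 21.7 and 22.3 CPM in sham libraries 1, 2 and 3 and 34.7, 46.3 and 48.5 CPM in BCP libraries 1, 2 and 3. Every BCP library exceeded every sham library, and BCP library 1 was the lowest of its group. The mean rose from 21.1 ± 1.54 to 43.1 ± 7.42 CPM (SD, n = 3), a 2.05-fold change (log2FC 1.03, 95% interval 0.79 to 1.28, edgeR adjusted p = 5.4e-06). The lower end of the interval lies under a 2-fold change. The log2FC fell to 0.98 without sham library 1 or BCP library 2 and to 0.94 without BCP library 3, and the gene then no longer passed the threshold on the fold change, although its adjusted p stayed under 0.05 in each of these fits. It was also just under 2-fold with upper-quartile normalization and with limma on log2(FPKM + 1).

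P2rx7 encodes the low-affinity ATP channel that drives release of interleukin-1β through the NLRP3 inflammasome. It was at 17.3, 18.4 and 18.0 CPM in sham tissue and at 34.4, 38.9 and 34.2 CPM in BCP tissue. The groups were well apart, and the spread within each was small. From 17.9 ± 0.567 CPM the mean rose to 35.8 ± 2.63 CPM (SD, n = 3), a 2.0-fold change (log2FC 1.0, 95% interval 0.81 to 1.19, edgeR adjusted p = 4.7e-08). P2rx7 therefore sat on the 2-fold threshold itself. Its log2FC was 0.98 without sham library 1 and 0.94 without BCP library 2, and it then missed the threshold on the fold change. It also missed it with no filter on low counts (0.998), with the replicate number as a block (0.999), with upper-quartile normalization (0.97) and with limma on log2(FPKM + 1) (0.88).

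P2rx4 and P2rx7 are neighbours on chromosome 12, at 39308025 to 39325673 and 39353613 to 39396042 (Rnor_6.0). Camkk2, a kinase gene that lies 5424 bases from P2rx4 on the other side, had a log2FC of 0.042 (95% interval -0.18 to 0.26, edgeR adjusted p = 0.816).

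P2ry6 encodes the UDP receptor, through which microglia take up debris. Its values were 5.49, 7.54 and 3.04 CPM in sham tissue and 21.6, 24.2 and 30.3 CPM in BCP tissue. Sham library 3 was the lowest, and the lowest BCP library still exceeded the highest sham library. P2ry6 had the highest fold change of the 9 tested genes, 4.75-fold (log2FC 2.25, 95% interval 1.47 to 3.02, edgeR adjusted p = 0.0035), from 5.36 ± 2.25 to 25.4 ± 4.47 CPM (SD, n = 3). The log2FC ranged from 1.95 without sham library 3 to 2.59 without sham library 2.

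P2ry14 encodes the receptor for UDP-glucose and related sugars and is known from immune cells. It was at 2.90, 3.56 and 2.43 CPM in sham tissue and at 7.69, 11.4 and 10.5 CPM in BCP tissue, with no overlap. The mean rose 3.34-fold from 2.96 ± 0.568 to 9.88 ± 1.95 CPM (SD, n = 3, log2FC 1.74, 95% interval 1.32 to 2.17, edgeR adjusted p = 1.6e-06). It was the only 1 of the 10 genes that passed a test against a fold change of 2 (edgeR's glmTreat, adjusted p = 0.0058), and P2ry6 missed it there (adjusted p = 0.054).

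The span of P2ry14 (chromosome 2, 149331948 to 149347796) lies within that of Med12l, which RefSeq places on the other strand. Med12l had 1672, 1775 and 1889 counts in sham tissue and 1356, 1511 and 1421 in BCP tissue, against 36 to 51 and 91 to 160 for P2ry14. The use of strand in the counting is not given in the sources used here, although the library kit keeps it, so reads of the overlapping genes may not have been kept apart. Med12l was lower in BCP tissue (log2FC -0.20, edgeR adjusted p = 0.0051), in the direction opposite to P2ry14.

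The sequences before the starts of the 3 up-regulated genes for which RefSeq gives a promoter on build GRCr8 are shown because these genes moved in the same direction. Each line holds the 250 bases before the start, 5′ to 3′ on the strand of the gene.
P2rx4 (chr12:39523090-39523339, minus strand): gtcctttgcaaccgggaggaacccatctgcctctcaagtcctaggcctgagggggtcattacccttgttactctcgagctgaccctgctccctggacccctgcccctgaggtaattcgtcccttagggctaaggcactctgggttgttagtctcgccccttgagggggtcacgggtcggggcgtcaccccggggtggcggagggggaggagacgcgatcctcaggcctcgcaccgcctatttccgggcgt
P2rx7 (chr12:39594923-39595172, minus strand): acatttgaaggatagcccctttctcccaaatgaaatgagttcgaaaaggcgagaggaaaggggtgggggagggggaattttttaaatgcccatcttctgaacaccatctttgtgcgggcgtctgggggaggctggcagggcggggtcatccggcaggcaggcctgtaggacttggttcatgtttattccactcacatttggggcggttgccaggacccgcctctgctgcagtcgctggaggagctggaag
P2ry14 (chr2:145538511-145538760, minus strand): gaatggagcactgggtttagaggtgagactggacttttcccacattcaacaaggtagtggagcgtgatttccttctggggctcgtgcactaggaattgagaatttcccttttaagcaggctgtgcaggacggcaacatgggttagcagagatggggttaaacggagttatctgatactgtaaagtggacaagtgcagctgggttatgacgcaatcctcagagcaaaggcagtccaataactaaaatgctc
No letters are in capitals, because none of the 3 motifs searched on both strands occurred there. These were GAGGAAGT, a motif of ETS factors such as PU.1, the core of an interferon response element, read as GAAA, any 2 bases and GAAA, and TATAAA, which 2.04%, 3.41% and 12.9% of 33469 promoter windows of the same length hold. The 8 windows of the 7 genes with a promoter in the table held none of them either. The windows differed in base composition, with 64.0% G and C in P2rx4, 56.0% in P2rx7 and 47.6% in P2ry14.

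P2ry1 and P2rx6 were lower, and P2rx5 did not pass the test. P2ry1, an ADP receptor of neurons, astrocytes and platelets, was at 20.7, 19.98 and 22.1 CPM in sham tissue and at 18.9, 14.3 and 15.4 CPM in BCP tissue, which did not overlap. Its mean was 20.9 ± 1.08 and 16.2 ± 2.43 CPM (SD, n = 3, log2FC -0.37, 95% interval -0.61 to -0.14, edgeR adjusted p = 0.017). The adjusted p rose to 0.068 without sham library 3, 0.10 without BCP library 2 and 0.066 without BCP library 3. DESeq2 gave an adjusted p of 0.051.

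P2rx6, a subunit that joins other P2X subunits, was at 32.0, 31.2 and 28.4 CPM in sham tissue and at 28.6, 23.2 and 23.8 CPM in BCP tissue. BCP library 1 lay just above sham library 3, so the groups overlapped. The log2FC was -0.28 (95% interval -0.48 to -0.079, edgeR adjusted p = 0.035), and the adjusted p lay between 0.10 and 0.15 in the fits without sham library 1, sham library 2, BCP library 2 or BCP library 3. With DESeq2 it was 0.091.

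P2rx5 stayed close to its sham level, with 17.7, 20.8 and 19.3 CPM in sham tissue and 19.3, 19.2 and 16.9 CPM in BCP tissue. Its log2FC was -0.064 (edgeR adjusted p = 0.70), and the 95% interval ran from 0.822-fold to 1.11-fold.

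P2rx2 and P2rx3, the subunits known from nociceptive afferents, were the lowest of the genes with counts. Only spinal cord was sequenced, so transcripts of these genes outside the cord were not measured. P2rx3 had 25, 14 and 28 counts in sham tissue and 13, 26 and 11 in BCP tissue, and P2rx2 had 27, 44 and 30 against 20, 49 and 28. The groups overlapped for both. The log2FC was -0.31 for P2rx3 (95% interval -1.09 to 0.46, edgeR adjusted p = 0.59) and 0.044 for P2rx2 (95% interval -0.58 to 0.67, edgeR adjusted p = 0.93), so the intervals ran from 0.471-fold to 1.37-fold for P2rx3 and from 0.669-fold to 1.59-fold for P2rx2, and differences of such sizes were not detectable at this depth. The sign for P2rx2 turned when sham library 1, sham library 3 or BCP library 2 was left out.

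The 10 markers of peripheral sensory neurons were at very different levels. The most abundant were Prph (127 to 181 CPM over the 6 libraries), Calca (27.2 to 50.8 CPM) and Scn9a (21.6 to 31.5 CPM). Mrgprd was listed at 0, Scn10a had between 1 and 10 counts in a library and Scn11a between 0 and 8, and 4 of the 10 were not tested. Of the 6 tested markers 3 were lower in BCP tissue and 1 was higher. The summed level of the 10 lay between 236 and 263 CPM in sham tissue and between 188 and 227 CPM in BCP tissue. Prph, Calca and Scn9a made up most of this sum, and the cells from which these transcripts came were not tested. The span of P2rx3 (chromosome 3, 72403993 to 72447801) shares 265 bases with that of Ssrp1, which RefSeq places on the other strand and which had 1113 to 1403 counts in a library.

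**Figure D2:**
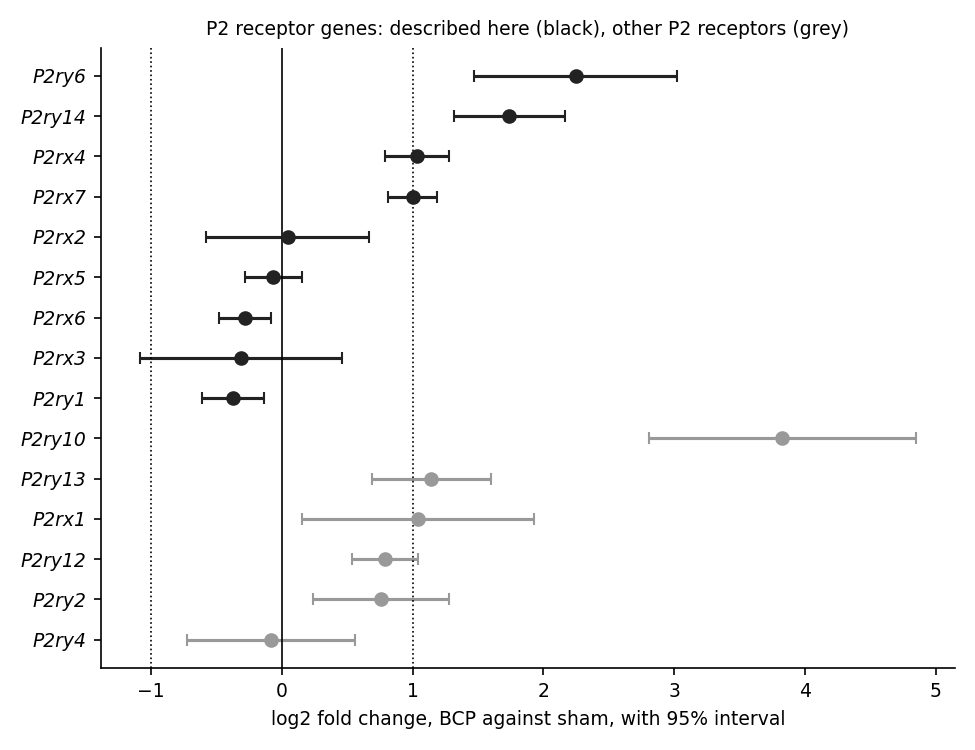
Log2 fold change of BCP against sham libraries with its 95% interval (edgeR, n = 3 per group), with dotted lines at a 2-fold change. Shown are the 9 tested genes (black) and 6 other genes named as P2 receptors (grey). The intervals of P2ry6 and P2ry14 lay wholly above the upper line, those of P2rx4 and P2rx7 crossed it, and those of P2rx2, P2rx3 and P2rx5 crossed 0.

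Entpd1 (chromosome 1, 259739955 to 259819494) was without a count in all 6 libraries. In counting terms alone, 0 counts would allow a level of up to 0.200 to 0.255 CPM of a library's total, depending on the library, at a floor of 3 counts. Of 30957 listed genes, 10312 were at 0 in all 6 libraries. Both rows of Hprt1 and the row of Fau, genes that every cell uses, were among them. So were Adora3, Entpd8, Slc29a2 and Calhm1. Hprt1 and Fau were chosen after their values had been seen. A level of 0 is therefore only what the table lists for Entpd1, and no fold change can be given.

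The order of the levels was read from the deposited FPKM (fragments scaled to gene length and library size), since levels of different genes can be compared only per length. In the sham libraries the order was P2rx6 (13.2 ± 0.769 FPKM, SD, n = 3), P2rx4 (10.6 ± 0.803), P2ry1 (6.48 ± 0.335), P2rx7 (3.91 ± 0.138), P2rx5 (3.14 ± 0.266), P2ry6 (2.14 ± 0.904), P2ry14 (0.924 ± 0.178), P2rx2 (0.455 ± 0.115) and P2rx3 (0.328 ± 0.109). The ranges of neighbours in this order overlapped only for P2rx5 with P2ry6 and for P2rx2 with P2rx3. In the BCP libraries P2rx4 was first, at 22.2 ± 3.98 FPKM, with its lowest library above the highest of P2rx6. P2rx6 (11.2 ± 1.21) and P2ry6 (10.4 ± 1.91) followed and overlapped, P2rx7 (8.05 ± 0.616) stood above P2ry1 (5.16 ± 0.733), and P2ry14 (3.17 ± 0.646) overlapped P2rx5 (3.09 ± 0.215). P2rx2 (0.478 ± 0.187) and P2rx3 (0.268 ± 0.113) remained last.

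**Figure D3:**
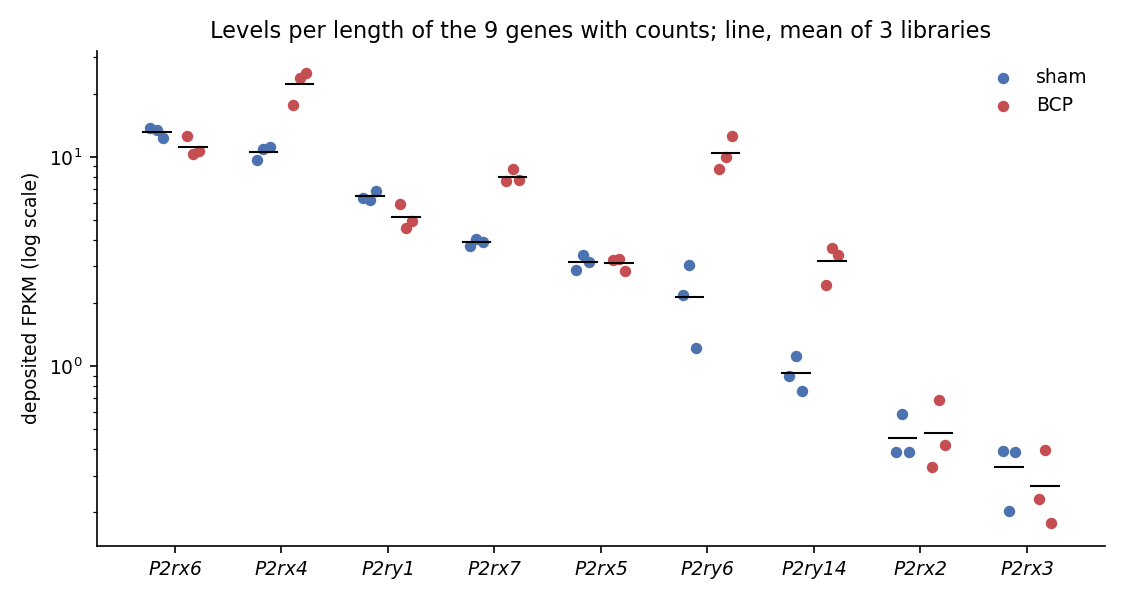
Deposited FPKM on a log axis of the 9 genes with counts in 3 sham and 3 BCP libraries (points) with the group means (lines), in the order of the sham means. P2rx6 stood first in sham tissue and P2rx4 in BCP tissue, and P2rx2 and P2rx3 were under 1 FPKM in every library.

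The summed FPKM of the 6 P2X subunits was 31.5 ± 0.914 in sham tissue and 45.3 ± 3.14 in BCP tissue (SD, n = 3). P2rx4 made up 31.3%, 33.4% and 35.7% of this sum in sham tissue and 42.4%, 50.5% and 53.5% in BCP tissue. P2rx6 made up 44.6%, 41.4% and 39.2% in the former and 30.1%, 21.8% and 22.6% in the latter. The share of P2rx7 was 12.4% ± 0.162 and 17.8% ± 1.13, and that of P2rx5 9.95% ± 0.571 and 6.87% ± 0.807. None of these 4 shares overlapped between the groups (exact permutation tests, two-sided, p = 0.1 for each, the smallest p that 3 against 3 allows), and P2rx2 and P2rx3 each stayed under 2%. The shares were computed after the counts had been seen, and each depends on the others.

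**Figure D4:**
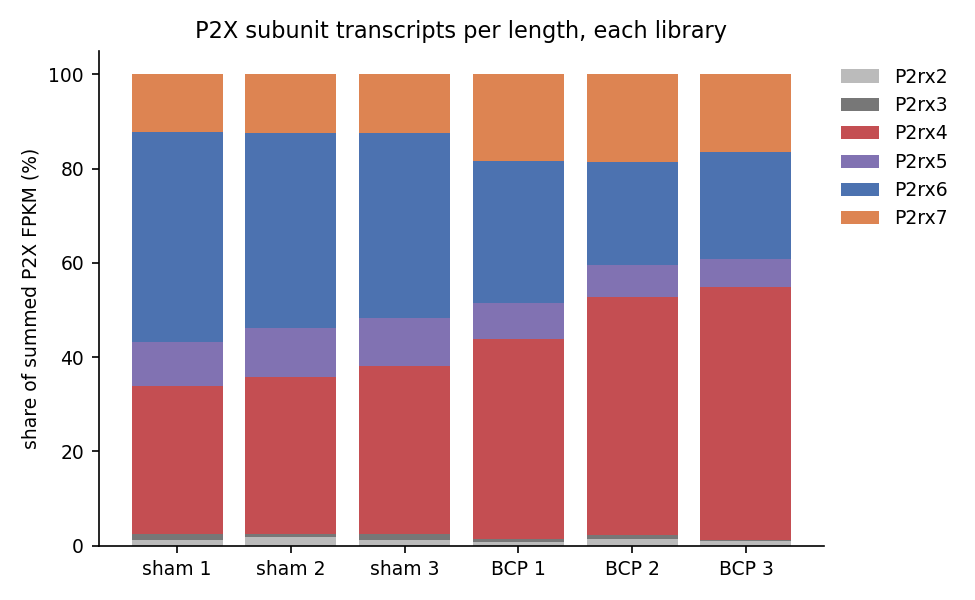
Share in percent of each P2X subunit in the summed deposited FPKM of the 6 subunits, as stacked bars for 3 sham and 3 BCP libraries. P2rx4 took 31.3% to 35.7% in sham tissue and 42.4% to 53.5% in BCP tissue, and P2rx6 took 39.2% to 44.6% and 21.8% to 30.1%.

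The summed CPM of the microglia list was itself 1.402 higher on the log2 scale (exact permutation test, two-sided, p = 0.1, the smallest possible), so each gene was also set against it as the log2 ratio of its CPM to that sum. The ratio of P2rx4 was -4.51 ± 0.260 in sham tissue and -4.90 ± 0.163 in BCP tissue (SD, n = 3), a difference of -0.38 with overlapping groups (exact permutation test, two-sided, p = 0.2). For P2rx7 the difference was -0.40, without overlap (exact permutation test, two-sided, p = 0.1, the smallest possible). Both differences depended on the complement genes C1qa, C1qb and C1qc in the list, and without these they were -0.046 and -0.065.

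P2ry6 stood higher against the summed microglia markers in BCP rats, but not against each of them. Its log2FC of 2.25 was below those of C1qc (2.88), C1qb (2.43) and Aif1 (2.40) and close to those of C1qa (2.24) and Tyrobp (2.20). Sall1 (log2FC 0.43) and Csf1r (1.44) were the most abundant genes of the list in sham tissue. The ratio of P2ry6 was -6.58, -6.06 and -7.12 in sham tissue and -5.76, -5.68 and -5.55 in BCP tissue, a difference of 0.92 without overlap (exact permutation test, two-sided, p = 0.1), and 1.26 without the complement genes. For P2ry14 the difference was 0.33 with overlapping groups (exact permutation test, two-sided, p = 0.2), or 0.67 without the complement genes. P2rx2, P2rx3, P2rx5, P2rx6 and P2ry1 all had lower ratios in BCP tissue, by 1.41 to 1.78 on the log2 scale, without overlap. Over the 9 genes these ratios made 9 comparisons, none of which could reach a p under 0.05.

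**Figure D5:**
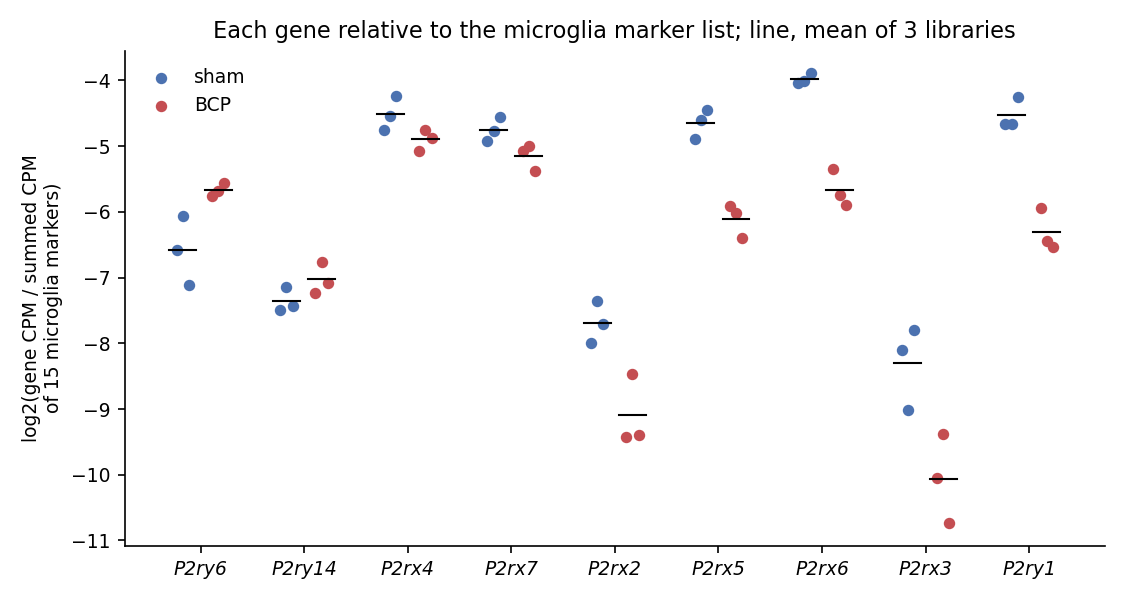
Log2 ratio of each gene's CPM to the summed CPM of 15 microglia markers in 3 sham and 3 BCP libraries (points) with the group means (lines), ordered by the difference between groups. P2ry6 lay higher in BCP tissue without overlap, P2ry14 and P2rx4 overlapped, and the 5 genes from P2rx2 to P2ry1 on the right lay lower.

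Other genes of the nucleotide pathway, and genes that act with P2X4 and P2X7 in microglia, were read from lists drawn up by function. Of 42 genes in 6 lists 37 were tested, of which 11 were up-regulated more than 2-fold and none down-regulated. Over all tested genes these shares were 6.35% and 0.107%. Of the 11, 7 were in the list of genes that act with P2X4 and P2X7 in microglia, where 8 were tested. The list of other P2 receptors held 2, and those of ectonucleotidases and ATP release held 1 each. With no threshold on the fold change 15 of the 37 were higher and 5 lower, against 15.8% and 12.1% of all tested genes. DESeq2 also called 11 of the 37 up-regulated more than 2-fold and none down-regulated.

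Among 6 other genes named as P2 receptors, P2ry10 and P2ry13 were up-regulated more than 2-fold. P2ry12 and P2ry2 were higher at an adjusted p under 0.05. P2ry10, a lysophospholipid receptor of lymphocytes, had 1, 3 and 2 counts in sham tissue and 20, 39 and 25 in BCP tissue (log2FC 3.83, edgeR adjusted p = 5.1e-06). P2ry13, an ADP receptor of microglia, rose from 3.55 ± 0.509 to 7.87 ± 2.16 CPM (SD, n = 3, log2FC 1.15, edgeR adjusted p = 0.00049). P2ry12, the ADP receptor that guides microglial processes, rose less, from 13.3 ± 2.17 to 22.9 ± 2.16 CPM (log2FC 0.79, edgeR adjusted p = 4.7e-05). Both P2ry12 and P2ry13 lie within the span of Med12l, as P2ry14 does. P2ry2, a receptor for UTP and ATP, had a log2FC of 0.76 (edgeR adjusted p = 0.026). P2rx1 had 5 to 10 counts in a sham library and 12 to 22 in a BCP library (log2FC 1.04, edgeR adjusted p = 0.075).

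The adenosine receptors did not pass the test. Adora1, the inhibitory receptor and the most abundant of them, was at 202 ± 5.75 and 187 ± 0.582 CPM (SD, n = 3, log2FC -0.11, edgeR adjusted p = 0.073), and Adora2b and Adora2a had log2FC values of -0.13 each. None of the 3 tested was called by edgeR, 1 had an unadjusted p under 0.05, and DESeq2 called none.

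Of 11 tested genes listed as ectonucleotidases or related enzymes, 1 was up-regulated more than 2-fold and 4 were lower at an adjusted p under 0.05. Acpp, an acid phosphatase that makes adenosine from AMP, had 4, 4 and 12 counts in sham tissue and 40, 73 and 68 in BCP tissue (log2FC 3.26, edgeR adjusted p = 7.9e-07). The lower genes were Entpd5 (log2FC -0.42), Alpl (-0.56), Enpp1 (-0.40) and Enpp2 (-0.23). Enpp2, which encodes autotaxin, was the most abundant gene of the list, at 472 ± 19.6 and 404 ± 12.5 CPM (SD, n = 3). Nt5e, the enzyme that follows Entpd1 on the path from ATP to adenosine, had a log2FC of 0.19 (95% interval -0.016 to 0.40, edgeR adjusted p = 0.17).

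Among the genes of ATP release Slc17a9, the vesicular nucleotide transporter, had 9, 12 and 15 counts in sham tissue and 31, 40 and 51 in BCP tissue (log2FC 1.86, edgeR adjusted p = 0.00012). Panx2 was lower (log2FC -0.37), and Gja1, the astrocyte connexin and most abundant gene of the list, had a log2FC of -0.0048 (95% interval -0.10 to 0.091). Of 4 tested genes that clear adenosine 2 were higher at an adjusted p under 0.05. The most abundant, the adenosine kinase gene Adk, was at 63.5 ± 0.783 and 62.3 ± 1.64 CPM (SD, n = 3, log2FC -0.025, edgeR adjusted p = 0.81), and Slc29a1 had a log2FC of -0.20 (edgeR adjusted p = 0.30). Ada (log2FC 0.98, edgeR adjusted p = 0.018) and Slc28a2 (log2FC 0.76, edgeR adjusted p = 0.00049) were higher, neither past 2-fold.

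Of 8 genes that act with P2X4 and P2X7 in microglia 7 were up-regulated more than 2-fold. Irf8, a transcription factor upstream of P2rx4 in activated microglia, rose from 13.7 ± 1.65 to 107 ± 12.8 CPM (SD, n = 3, log2FC 2.97), and Irf5 had a log2FC of 1.92. The inflammasome genes downstream of P2X7 had log2FC values of 2.07 for Nlrp3, 2.44 for Pycard and 1.96 for Casp1, and the cytokine genes Il1b and Il18 had 2.80 and 1.97. Each of these 7 had an edgeR adjusted p under 0.05. Bdnf, the neurotrophin tied to P2X4, was at 83, 64 and 110 counts in sham tissue and 96, 107 and 76 in BCP tissue, with overlapping groups (log2FC 0.24, 95% interval -0.18 to 0.65, edgeR adjusted p = 0.43).

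Among the lncRNAs, 16 transcripts lay within 10 kb of 7 of the 10 genes, and 8 had enough counts to be tested. None had an adjusted p under 0.05 in edgeR or in DESeq2. At that adjusted threshold edgeR called 1.57% of 12157 tested lncRNAs higher and 0.395% lower (1.14% and 0.074% with a fold change over 2 as well). In edgeR 1 of the 8 had an unadjusted p under 0.05, a threshold at which the share of all lncRNAs was not computed. That lncRNA, NONRATT018332.2 (chromosome 3, 72453960 to 72456830), lies 6159 bases from P2rx3 and had a log2FC of 0.54 (edgeR adjusted p = 0.36). The highest log2FC of the 8, 1.19 (95% interval -0.14 to 2.52, edgeR adjusted p = 0.44), belonged to NONRATT015323.2, which spans all of P2ry1 (chromosome 2, 151314797 to 151320380) with 22, 12 and 4 counts in sham tissue and 32, 31 and 17 in BCP tissue. NONRATT007986.2, within P2rx4, had 9, 11 and 5 counts against 9, 17 and 14 (log2FC 0.80, edgeR adjusted p = 0.48). The log2FC of the others were 0.20 for NONRATT018330.2 and 0.43 for NONRATT018331.2 near P2rx3, 0.41 for NONRATT005671.2 near P2rx5, -0.15 for NONRATT006753.2 within P2rx6 and -0.050 for the assembled MSTRG.16755.1 near P2ry14.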

How the data were processed

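RNA-seq of 3 sham and 3 BCP libraries was analysed. Libraries were made with a stranded kit. Per the paper and the submitters' processing notes, the authors used Seqtk for read filtering, HISAT2 2.0.4 for alignment (Rnor_6.0) and StringTie 1.3.0 for FPKM. They deposited whole-number counts and FPKM values per gene and per lncRNA. The program that made the counts and its use of strand are not given in the sources used here.

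The main test was edgeR 4.0.16 (R 4.3.3) on the counts of each whole table (TMM normalization, filter by expression, robust quasi-likelihood fit on the condition, Benjamini-Hochberg adjustment), which left 14908 genes and 12157 lncRNAs. The thresholds were an adjusted p under 0.05 with and without a fold change over 2. Intervals are 95% intervals of the fit. Alternatives were DESeq2 1.42.0, limma 3.58.1 on log2(FPKM + 0.1) and log2(FPKM + 1), other scalings and filters, a test against a 2-fold change, the replicate number as a block, and each library left out. Promoters came from RefSeq (GRCr8). The fit was tested on simulated data. Figures used matplotlib 3.10.9.

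The 10 genes and the lists were chosen with earlier results of these data known. The text names the 10 genes, every list gene past both thresholds, up to 2 others per list with the highest mean level, and tested lncRNAs within 10 kb. P2rx1, Adora2a, Entpd5, Alpl, Enpp1, Nt5e, Panx2, Ada, Slc28a2, Hprt1, Fau, single marker genes not at 0 and the neighbouring genes were added after their values had been seen.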

Additional observations from a re-analysis of the deposited data

How the results depend on the processing

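Of the 9 tested genes, P2rx4, P2rx7, P2ry6 and P2ry14 kept an adjusted p under 0.05 in all 14 alternatives other than the test against a 2-fold change, and P2ry6 and P2ry14 also stayed over 2-fold in all 14. P2rx4 stayed over 2-fold in 9 of the 14 (log2FC 0.94 to 1.17) and P2rx7 in 8 (0.88 to 1.04). P2ry1 kept an adjusted p under 0.05 in 8 and P2rx6 in 6. The number of the 10 genes up-regulated more than 2-fold was 2 with upper-quartile normalization and with limma on log2(FPKM + 1), 1 in the test against a 2-fold change, and 2 to 4 when a library was left out. The number that were lower was 0 with DESeq2 and with limma at either pseudocount and 1 with library size only, and ranged from 0 to 2 when a library was left out.

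Among genes of the lists drawn up by function, 7 were up-regulated more than 2-fold with at least 10 counts in every library and with limma on log2(FPKM + 1). With limma at either pseudocount 3 were lower. When a library was left out these counts ranged from 11 to 12 and from 3 to 5.

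Over all genes, 548 were up-regulated in the test against a 2-fold change and 626 with limma on log2(FPKM + 1), in place of 946. The number down-regulated, 16, became 37 with no filter on low counts, 6 with at least 10 counts in every library, 9 with limma on log2(FPKM + 0.1), 0 with limma on log2(FPKM + 1) and 0 in the test against a 2-fold change, and 16 to 33 when a library was left out. With no threshold on the fold change 2352 were higher and 1805 lower, 966 or 975 lower with limma at the lower or higher pseudocount. Of these calls 56.6% were higher, against 68.0% with library size only and 71.7% with limma, and 47.1% with upper-quartile normalization, where lower calls were the more numerous (2134 higher and 2401 lower).

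Without C1qa, C1qb and C1qc in the microglia list, the difference in log2 ratio was -0.046 for P2rx4, -1.13 for P2rx5, -1.35 for P2rx6, -0.065 for P2rx7, -1.44 for P2ry1 and 0.67 for P2ry14. Of the lncRNAs near the genes 3 tested ones overlapped a span.

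The sign turned for P2rx2 (-0.047, -0.065 and -0.32 without sham library 1, sham library 3 and BCP library 2, over a range of -0.32 to 0.27), NONRATT018330.2 (range -0.034 to 0.34) and NONRATT006753.2 (range -0.31 to 0.053) without sham library 2, and MSTRG.16755.1 (range -0.16 to 0.085) without BCP library 2. The cause of these shifts was not tested. Whether the replicate numbers pair the samples is not given in the labels. Over genes, the deviations of same-numbered libraries correlated at -0.11, 0.054 and -0.035, and those of differently numbered libraries at -0.132 to 0.151. With 3 libraries per group, whose deviations sum to 0, these correlations cannot decide the question. With the replicate number as a block 3 of the 10 genes were up-regulated more than 2-fold, without P2rx7 (log2FC 0.999), and 2 were lower. Depth limits P2rx2 and P2rx3, with 11 to 49 counts in a library.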

Other observations

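Within 10 kb of the 10 genes lay 15 other listed genes, of which 11 were tested and 4 had an edgeR adjusted p under 0.05. Over all tested genes 15.8% were higher and 12.1% lower at that threshold, so the count is near the share over all genes. Gpr171, a G protein-coupled receptor gene of lymphocytes 6035 bases from P2ry14, had 11, 4 and 6 counts in sham tissue and 29, 35 and 35 in BCP tissue, which did not overlap (log2FC 2.32, edgeR adjusted p = 7.8e-05). Pole, the catalytic subunit of DNA polymerase epsilon, lies 2514 bases from P2rx2 and had a log2FC of 0.94 (edgeR adjusted p = 0.011). Tax1bp3, 2698 bases from P2rx5, had a log2FC of 0.71 (edgeR adjusted p = 0.0025), whereas P2rx5 had -0.064 and Emc6, which lies between them, had -0.070 (edgeR adjusted p = 0.77). Med12l, described above with P2ry14, was the only 1 of the 4 that was lower. Arhgef17, 5371 bases from P2ry6, had a log2FC of -0.075 (95% interval -0.19 to 0.041, edgeR adjusted p = 0.36), against 2.25 for P2ry6. These neighbours were looked at after the results on the 10 genes had been seen.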
